A study of Mus musculus with 6 samples.

Results

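The genes that carry fatty acids into adipocytes and build triglyceride from them were followed in differentiating brite adipocytes after knockdown (KD) of the lncRNA *Ctcflos*. They were taken as the rows of the deposited expression table whose gene symbol is 1 of 38 listed names, and all 38 were found among the 52089 symbols of the table. By role they comprised 6 genes of fatty acid uptake and binding, 4 of fatty acid activation, 6 of de novo fatty acid synthesis, 8 of desaturation and elongation, 12 of glycerolipid synthesis and 2 lipogenic regulators.

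Triglyceride is made in the endoplasmic reticulum by adding fatty acids, activated to acyl-CoA, one after another to a glycerol 3-phosphate backbone. The fatty acids are either taken up from lipoproteins and serum or built from acetyl-CoA, and adipocytes switch on both routes, together with the enzymes of esterification, as they differentiate. In brite and brown adipocytes the stored triglyceride is the fuel of heat production, and insulin, thyroid hormone and PPARγ agonists such as rosiglitazone, all present in the culture medium, are known inducers of this gene programme.

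The cells were primary preadipocytes from the stromal-vascular fraction of inguinal white fat of 129SvEv mice (the spelling of the labels, 129S6sv/ev in the methods of the study), which the methods give as male and 5 to 6 weeks old, and they were not genetically modified. Both groups were induced for 2 days, kept for 1 day in differentiation medium with insulin, T3 and rosiglitazone, and reverse transfected with 50 nM of an LNA Gapmer antisense oligonucleotide. It was directed against *Ctcflos* in 3 KD libraries and nontargeting in 3 control libraries, and cells were harvested 24 h later. The labels do not tie the libraries to separate mice or cultures, so that p-values measure the spread between these libraries, which may be technical, and 1 antisense sequence stands for the KD.

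Depth recovered from the values was 60.8 to 75.5 mio mapped reads in KD and 62.9 to 79.2 mio in control libraries. All are above the approximate read number per sample stated in the methods of the study, and the reason was not tested. *Ctcflos* (listed as 1300015D01Rik) was at 0.0969, 0.0705 and 0.210 RPKM in KD libraries 1, 2 and 3 and at 0.748, 0.751 and 0.840 RPKM in the controls. KD library 3 thus held the most *Ctcflos* RNA of the KD libraries, and all 3 were below the controls. RPKM values are read numbers divided by transcript length and library size, so that levels can be set side by side between genes only roughly. The value of a member is a plain mean over its transcript accessions, from 2 for *Fabp4* to 21 for *Lpin2*. These overlap and share reads, so that the order of members and their shares of a sum also depend on the annotation. Of 8 adipocyte markers, 7 passed the filter of a mean RPKM of 1 used throughout. By limma 0 of these were called, against 12.4% lower and 11.5% higher over all genes tested. At an unadjusted p under 0.05, 4 were lower and 0 higher. Their median log2 fold change was −0.35, and their summed level was 1368 to 1901 RPKM in KD and 1896 to 2051 RPKM in control libraries. For markers of other cell types, 1 of 5 progenitor and fibroblast genes past the filter was called lower (*Pdgfra*), the 1 macrophage marker past the filter was called higher (*Cd68*, 2.16 to 4.12 against 0.657 to 1.92 RPKM) while the pan-leukocyte marker *Ptprc* stayed at or below 0.0486 RPKM in all libraries, and the 1 smooth muscle marker past it was called lower (*Mcam*). With so few genes past the filter, these single calls cannot be told apart from the shares over all genes tested. Summed levels in KD and control libraries were 185 to 406 against 282 to 456 RPKM for progenitor markers, 4.03 to 6.06 against 1.76 to 4.11 for macrophage and leukocyte markers, 0.654 to 0.933 against 1.08 to 1.35 for endothelial markers (0 of 5 past the filter), 2.03 to 3.77 against 4.17 to 6.44 for smooth muscle and pericyte markers, and 8.31 to 30.2 against 6.48 to 9.73 for mesothelial and epithelial markers (1 of 5 past the filter, 0 called by limma, 1 higher at an unadjusted p under 0.05). The adipocyte marker level moved in the same direction as most results given here and its part in them was not tested. In such bulk RNA, fewer adipocytes and less RNA per adipocyte cannot be told apart.

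Under *Ctcflos* KD, 11 of the 36 members that passed the filter were called lower and 0 higher, and 6 of these 11 act in glycerolipid synthesis. The lowest relative to control were *Acaca*, the first committed enzyme of fatty acid synthesis, *Thrsp*, a regulator of lipogenesis, *Slc27a1*, a fatty acid transporter, and *Gpam*, which starts glycerolipid synthesis. Over all 11701 genes tested, 12.4% were called lower and 11.5% higher (limma, adjusted p under 0.05, log2(RPKM + 1) scale). At an unadjusted p under 0.05, 17 members were lower and 2 higher. Shares over all genes at this p are not given, here or for any list, and are at least the 12.4% and 11.5% called. For 19 members every KD library was below every control, against 21.9% of all genes tested, and for 2 members every KD library was above every control, against 22.9% of all genes. The log2 fold change was negative for 30 of 36 members with a median of −0.30, while over all genes 46.8% were negative and the median was 0.03. *Mogat1* and *Mlxipl* had a mean RPKM under 1 and are given from a fit without the filter.

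**Figure D1:**
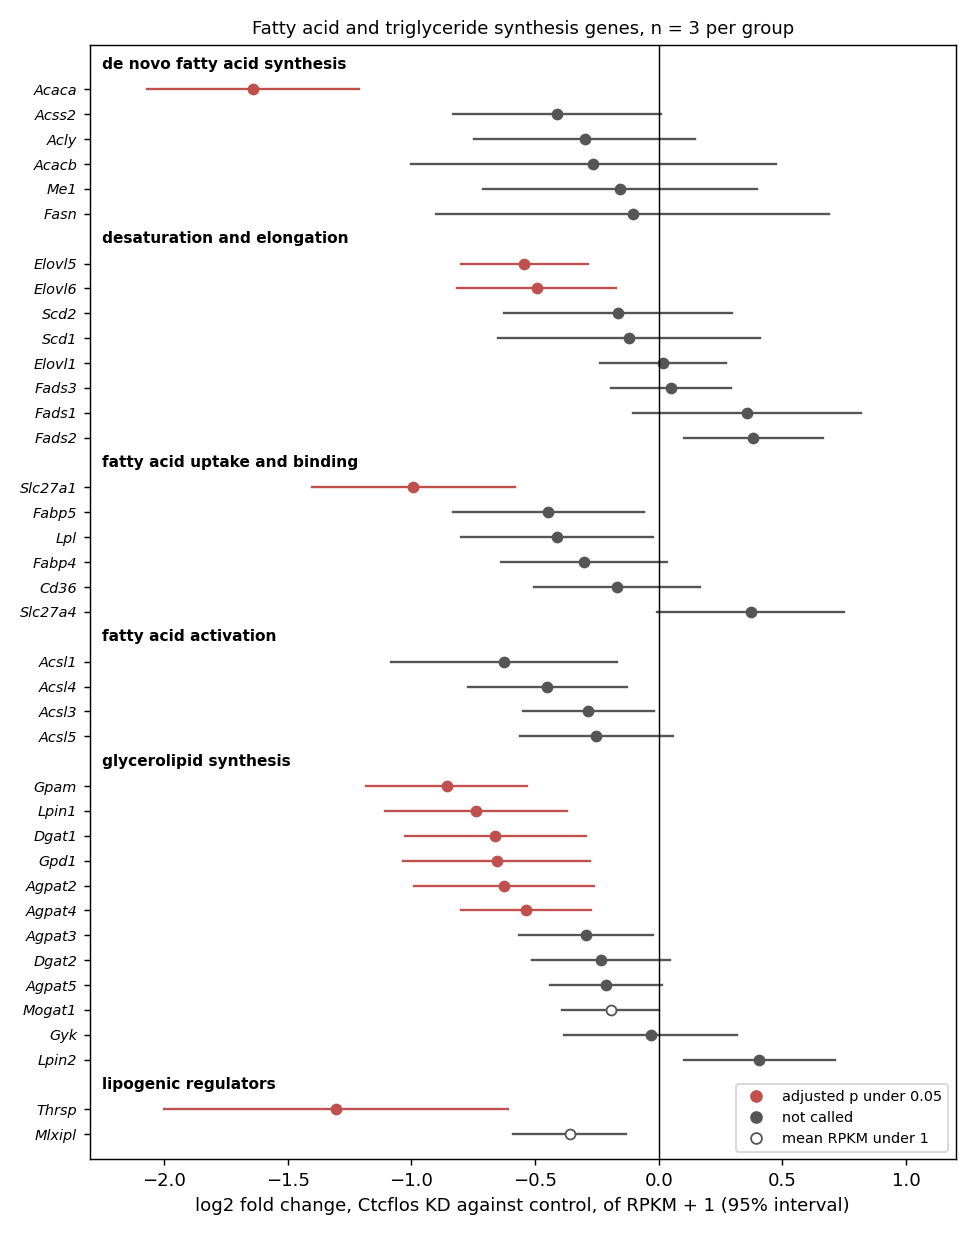
Log2 fold change of each of the 38 members in *Ctcflos* KD against control on the log2(RPKM + 1) scale (x axis), grouped by role (y axis), with 95% intervals of the limma fit on 3 libraries per group. Red points are the 11 members with an adjusted p under 0.05, all left of 0 and 6 of them in glycerolipid synthesis, and open points are *Mogat1* and *Mlxipl*, whose mean RPKM was under 1.

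The calls depended on single libraries. Between 2 and 19 members were called when 1 library was left out, and *Acaca* and *Gpam* were called in each of these 6 fits. Without control 1 or without control 3, these 2 were the only members called. Without KD library 3, 16 members including all 11 were called lower and 3 higher. Over all 11701 genes tested, calls went from 2803 with all libraries to 434, 423 and 4784 in these fits, in that order. KD library 3 had the most *Ctcflos* RNA and the lowest recovered depth of the KD libraries, and the part of either was not tested.

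Levels of the members in controls ranged from 4041 RPKM for *Fabp4* to 0.334 RPKM for *Mogat1*. *Fabp4*, the abundant fatty acid binding protein of the adipocyte cytosol, was at 4198, 3682 and 4243 RPKM in controls and at 2829, 3471 and 3574 RPKM in KD libraries. *Scd1*, the stearoyl-CoA desaturase, followed with 2521, 1578 and 2152 RPKM in controls and 2343, 1961 and 1452 RPKM in KD. The *Fabp4* values did not overlap between groups and those of *Scd1* did. Neither was called (log2 fold change −0.30 ± 0.15 SE, adjusted p = 0.164 for *Fabp4*, and −0.12 ± 0.23 SE, adjusted p = 0.726 for *Scd1*). Together these 2 genes held 66.4% to 71.7% of the summed RPKM of all members in each library, so that the sum over the members, 7323 to 7571 RPKM in KD and 7924 to 9910 RPKM in controls, rests mainly on them. Next in controls stood *Lpl* (533 RPKM), *Gpd1* (431 RPKM) and *Scd2* (403 RPKM). Ordered by control mean, 12 of the 37 pairs of neighbours had control values that did not overlap, among them *Fabp4* above *Scd1* and *Scd1* above *Lpl*, while from *Gpd1* through *Scd2* and *Agpat2* to *Cd36* each gene overlapped with the next.

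**Figure D2:**
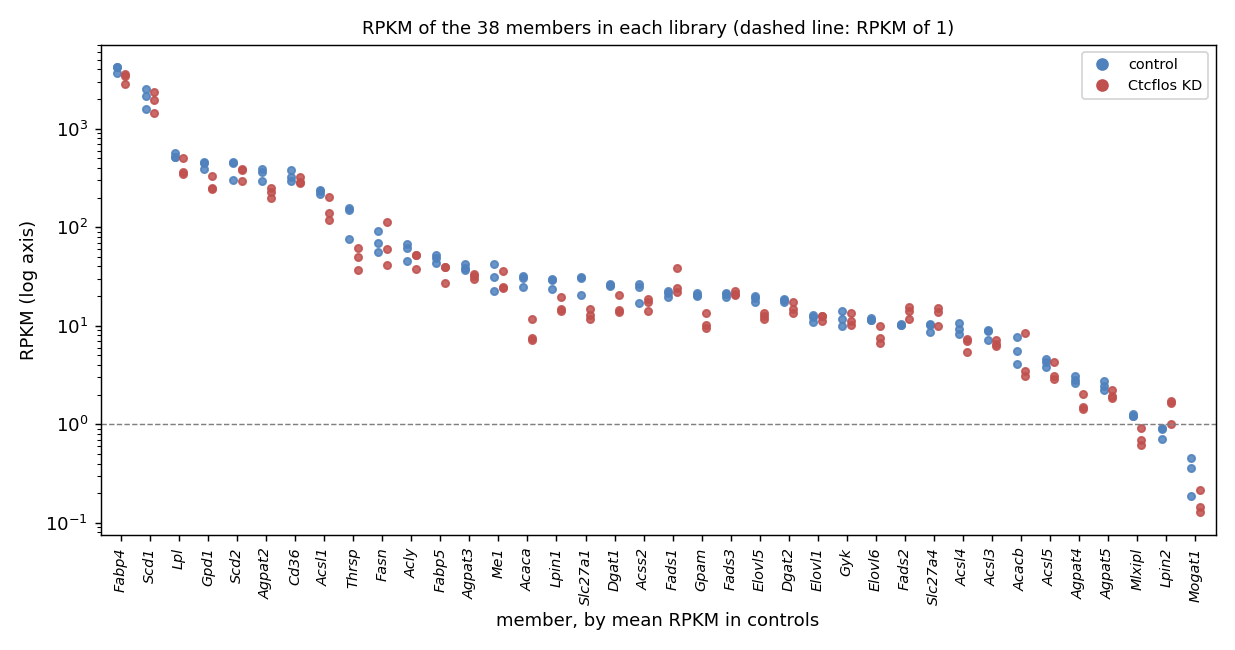
RPKM of each of the 38 members (log y axis) in the 3 control (blue) and 3 *Ctcflos* KD libraries (red), ordered along the x axis by the mean RPKM in controls, 1 point per library, with a dashed line at the filter of 1. *Fabp4* and *Scd1* stand above all other members in every library, and the KD points of *Acaca*, *Slc27a1* and *Gpam* lie below their control points.

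Fatty acids reach adipocytes from circulating lipoproteins through lipoprotein lipase, encoded by *Lpl*, and cross the membrane with the help of *Cd36* and of transport proteins of the Slc27a family. Of the 6 genes of uptake and binding, all passed the filter and 1 was called lower, a count near the 12.4% of all genes tested. This was *Slc27a1* on chr8:71568882-71587302 (GRCm38, Gencode vM21, as are all gene positions given here). *Slc27a1*, whose protein FATP1 takes up long-chain fatty acids, was at 13.0, 14.8 and 11.7 RPKM in KD and at 30.6, 20.5 and 31.4 RPKM in control libraries. The KD mean was 47.8% of the control mean and the groups were apart (log2 fold change −0.99 ± 0.18 SE, adjusted p = 0.0106), with control 2 closest to the KD libraries. *Lpl* was at 348, 367 and 504.4 RPKM in KD and at 521, 567 and 513 RPKM in controls, where KD library 3 came close to the lowest control. It was not called (−0.41 ± 0.17 SE, adjusted p = 0.112). *Fabp5*, a second fatty acid binding protein, had 73.6% of the control mean without overlap (adjusted p = 0.0875), *Cd36* 88.6% with overlap (adjusted p = 0.419), and *Slc27a4*, another transporter of the family, 134% with overlap (adjusted p = 0.132). The KD means of *Slc27a1* and *Slc27a4* thus lay on opposite sides of control, but only *Slc27a1* was apart from the controls. *Slc27a4* passed the threshold only without KD library 3 (limma, adjusted p = 0.0098).

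Long-chain acyl-CoA synthetases activate the fatty acids that have been taken up or made. None of the 4 was called by limma, against 12.4% lower and 11.5% higher over all genes tested. At an unadjusted p under 0.05, 3 were lower and 0 higher. *Acsl1*, the most abundant of them in adipocytes, was at 119, 138 and 203 RPKM in KD and at 220, 238 and 234 RPKM in controls, without overlap and with the value of KD library 3 near the controls (log2 fold change −0.62 ± 0.20 SE, adjusted p = 0.0537). *Acsl4*, which prefers arachidonic acid, had 70.5% of the control mean (adjusted p = 0.0501), *Acsl3*, which acts at the endoplasmic reticulum and lipid droplets, 79.7% (adjusted p = 0.106) and *Acsl5* 80.95% (adjusted p = 0.201). Without KD library 3, *Acsl1* (adjusted p = 0.0034) and *Acsl4* (adjusted p = 0.0219) passed the threshold.

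De novo synthesis starts from cytosolic acetyl-CoA, which ATP citrate lyase (*Acly*) makes from citrate and *Acss2* from acetate. Acetyl-CoA carboxylase turns it into malonyl-CoA, fatty acid synthase (*Fasn*) builds palmitate, and malic enzyme (*Me1*) supplies NADPH. All 6 genes passed the filter and 1 of them was called lower, a count near the 12.4% of all genes tested. *Acaca* (chr11:84129672-84401651), which encodes the cytosolic carboxylase, was at 7.46, 7.18 and 11.6 RPKM in KD and at 31.7, 24.9 and 30.3 RPKM in controls. Every KD library was below every control, and the KD mean of 8.75 ± 2.48 RPKM (SD, n = 3) was 30.2% of the control mean of 28.9 ± 3.59 RPKM (SD, n = 3; log2 fold change −1.64 ± 0.19 SE, adjusted p = 0.0033), the largest decrease of all members. *Acacb*, which encodes the carboxylase at the outer mitochondrial membrane, was at 8.38, 3.09 and 3.48 RPKM in KD and at 7.75, 4.13 and 5.61 RPKM in controls and was not called (adjusted p = 0.568). *Fasn* was at 114, 41.8 and 60.5 RPKM in KD and at 92.6, 55.6 and 69.8 RPKM in controls. Its KD libraries held both the highest and the lowest of the 6 values, the means were close (99.0% of control), and the 95% interval of its log2 fold change reached from −0.90 to 0.69, so that changes in either direction were within the error (adjusted p = 0.842). *Acly* (80.9% of control, adjusted p = 0.288), *Acss2* (73.4%, adjusted p = 0.136) and *Me1* (87.9%, adjusted p = 0.656) overlapped between groups and were not called either.

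The product palmitate is lengthened by elongases and given double bonds by desaturases. Of the 8 genes, 2 were called lower, both elongases, against 12.4% of all genes tested. *Elovl5* (chr9:77917364-77984519), the elongase of polyunsaturated fatty acids, was at 11.8, 13.6 and 12.5 RPKM in KD and at 19.1, 17.5 and 20.0 RPKM in controls. All KD values were below all control values, with 67.0% of the control mean (log2 fold change −0.54 ± 0.11 SE, adjusted p = 0.0153). *Elovl6* (chr3:129532355-129638495), which turns palmitate into stearate, had 69.4% of the control mean without overlap (adjusted p = 0.0384), and *Elovl1*, which acts on saturated very long chains, 101% with overlap (adjusted p = 0.924). Among the desaturases 0 were called by limma, and 1 was higher at an unadjusted p under 0.05. This was *Fads2*, the delta-6 desaturase of polyunsaturated fatty acids, which was at 15.5, 14.0 and 11.7 RPKM in KD and at 10.4, 10.3 and 10.1 RPKM in controls. All KD libraries were above all controls (log2 fold change 0.38 ± 0.12 SE, adjusted p = 0.0552). Its neighbour in the pathway, the delta-5 desaturase *Fads1*, was at 133% of control with overlap (adjusted p = 0.221) and *Fads3* at 104% (adjusted p = 0.755). *Scd2*, at 394, 380 and 295 RPKM in KD and 447, 305 and 458 RPKM in controls, overlapped between groups like *Scd1* (log2 fold change −0.17 ± 0.20 SE, adjusted p = 0.565).

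Glycerolipid synthesis, the role with the most members, held the most calls. By limma, 6 of its 11 genes past the filter were lower and 0 higher, against 12.4% and 11.5% of all genes tested. At an unadjusted p under 0.05, 1 was higher, and the median log2 fold change was −0.54. For 8 of the 11, every KD library was below every control, against 21.9% of all genes tested. For 1 every KD library was above every control, against 22.9%. They are described in the order of the pathway.

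The backbone comes from glycolysis through glycerol 3-phosphate dehydrogenase, encoded by *Gpd1* (chr15:99717515-99725005). *Gpd1* was at 244, 248.5 and 334 RPKM in KD and at 462, 387 and 445 RPKM in controls. The groups were apart with KD library 3 highest among the KD libraries, and the KD mean was 63.9% of control (log2 fold change −0.66 ± 0.16 SE, adjusted p = 0.0265). Glycerol kinase (*Gyk*), which makes the same backbone from free glycerol, had 97.3% of the control mean with overlap (adjusted p = 0.894). *Gpam* (chr19:55067268-55127238), the mitochondrial acyltransferase that adds the first fatty acid, was at 10.1, 9.58 and 13.6 RPKM in KD and at 20.2, 21.3 and 20.7 RPKM in controls. The controls lay close to each other and well above the KD libraries, with 53.6% of the control mean left (log2 fold change −0.86 ± 0.14 SE, adjusted p = 0.0085).

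The second fatty acid is added by acyltransferases of the Agpat family. *Agpat2* (chr2:26593057-26604417), the main form of adipocytes and mutated in congenital lipodystrophy, was at 199, 227 and 252 RPKM in KD and at 364, 297 and 390 RPKM in controls. The groups did not overlap and the KD mean was 64.6% of control (log2 fold change −0.62 ± 0.16 SE, adjusted p = 0.0273). *Agpat4* (chr17:12118704-12219645) was expressed at a far lower level, with 1.43, 1.49 and 2.05 RPKM in KD and 2.62, 3.09 and 2.79 RPKM in controls. It too was lower in every KD library, at 58.3% of the control mean (log2 fold change −0.54 ± 0.11 SE, adjusted p = 0.0170). *Agpat3* and *Agpat5* had 81.1% and 80.7% of the control mean, did not overlap between groups and were not called (adjusted p = 0.105 and 0.148).

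Lipins remove the phosphate to yield diacylglycerol. *Lpin1* (chr12:16535669-16610966), the lipin of adipose tissue and muscle, was at 14.95, 14.0 and 19.8 RPKM in KD and at 30.1, 23.7 and 28.9 RPKM in controls. Its KD mean was 58.9% of control and the groups were apart (log2 fold change −0.74 ± 0.16 SE, adjusted p = 0.0175). *Lpin2* had the opposite sign at a low level, with 1.71, 1.65 and 1.02 RPKM in KD and 0.9205, 0.702 and 0.902 RPKM in controls, and all KD libraries were above all controls, KD library 3 by the least. It missed the threshold (log2 fold change 0.41 ± 0.13 SE, adjusted p = 0.0575) and was called higher under 3 of the other ways to set the scale or the gene value and without KD library 3.

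Diacylglycerol acyltransferases add the last fatty acid. *Dgat1* (chr15:76502015-76511953) was at 14.3, 13.7 and 20.6 RPKM in KD and at 26.3, 25.3 and 26.0 RPKM in controls. All KD values were below the controls, with 62.9% of the control mean (log2 fold change −0.66 ± 0.16 SE, adjusted p = 0.0230). *Dgat2*, which is unrelated to *Dgat1* in sequence, had 84.7% of the control mean with overlap (adjusted p = 0.193). *Mogat1*, an acyltransferase for monoacylglycerol, was at 0.128 to 0.215 RPKM in KD and at 0.190 to 0.4525 RPKM in controls, with overlap (adjusted p = 0.219 without the filter).

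Of the 2 lipogenic regulators, *Thrsp* (chr7:97412938-97417730), the thyroid hormone responsive Spot 14 gene, was at 50.3, 61.8 and 36.5 RPKM in KD and at 157, 75.5 and 150 RPKM in controls. Control 2 was well below the other controls and still above all KD libraries, and the KD mean was 38.9% of control (log2 fold change −1.30 ± 0.30 SE, adjusted p = 0.0210). *Mlxipl*, which encodes the carbohydrate response factor ChREBP, was at 0.911, 0.624 and 0.691 RPKM in KD and at 1.21, 1.21 and 1.27 RPKM in controls. It was below all controls in each KD library but its mean did not pass the filter (adjusted p = 0.0782 without the filter). With RefSeq mRNA accessions alone, or with the highest accession of each gene, *Mlxipl* passed the filter and was called lower. Its 6 accessions with a mean RPKM of at least 1 had 60.5% to 61.4% of the control mean.

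**Figure D3:**
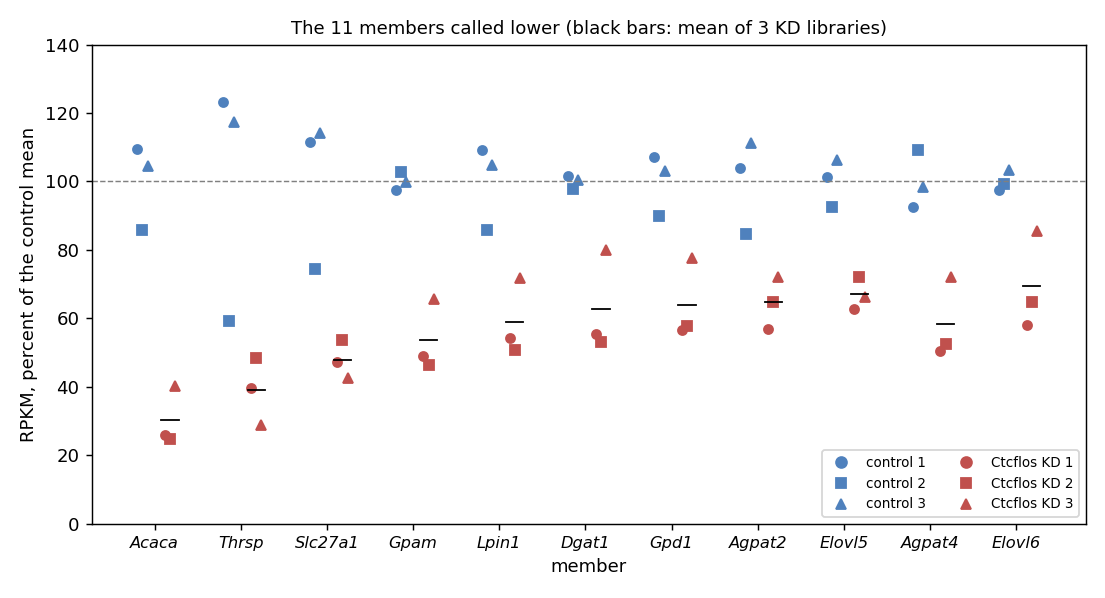
RPKM of the 11 members called lower, as percent of the mean of the 3 controls (y axis, from 0), for each control (blue) and *Ctcflos* KD library (red), with 1 symbol per library number and black bars for the KD means. All KD points lie below all control points of the same gene, KD library 3 (red triangles) is the highest KD point for most of the genes, and control 2 (blue squares) is far below the other controls for *Thrsp* and *Slc27a1*.

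The spread within the groups followed the same libraries. KD library 3 was the highest KD library for 8 of the 11 members called lower, and for 75.9% of all genes called lower against 29.8% of all genes tested. Control 2 was the lowest control for 27 of 36 members, 75.0%, against 51.3% of all genes tested. Among the 25 members that were not called it was lowest for 19, and KD library 1 was highest for 12. The median coefficient of variation of the members was 18.8% in KD and 10.2% in controls, against 15.1% and 9.19% over all genes tested. *Acacb* (59.2%) and *Fasn* (51.7%) varied the most among KD libraries and *Fads3* (4.28%) the least, and KD library 1 was the highest for both of the former.

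Transcript records of a gene, named by RefSeq, Ensembl or GenBank accession, could differ in their response. The 38 members had 340 records in the table, 54 of RefSeq mRNAs, 92 of Ensembl transcripts and 194 of GenBank clones, which overlap and share reads. Usage of records within a gene was called for 0 of 37 members tested (limma diffSplice, adjusted p under 0.05), against 0.658% of the 10027 genes tested, and an unadjusted p was under 0.05 for 1 member against 3.6% of genes. This member was *Acaca* (limma diffSplice, unadjusted p = 0.0456, adjusted p = 1.0), whose 8 records past the filter were between 25.8% and 39.4% of control. Each of these 8 was below the controls in every KD library, and so were all records past the filter of *Gpam* (4), *Lpin1* (9), *Slc27a1* (8), *Thrsp* (4), *Gpd1* (6), *Agpat2* (9), *Agpat4* (7), *Elovl5* (4) and *Elovl6* (4). For *Dgat1* this held for 7 of 9 records. It also held for all records past the filter of members that were not called, *Acsl4* (7), *Mlxipl* (6), *Fabp5* (5) and *Fabp4* (2). Because records of a gene share reads, their agreement is no separate evidence, and its share over all genes is not given. At the other end, 6 of 9 records of *Lpin2* and 5 of 7 of *Fads2* were above the controls in every KD library.

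**Figure D4:**
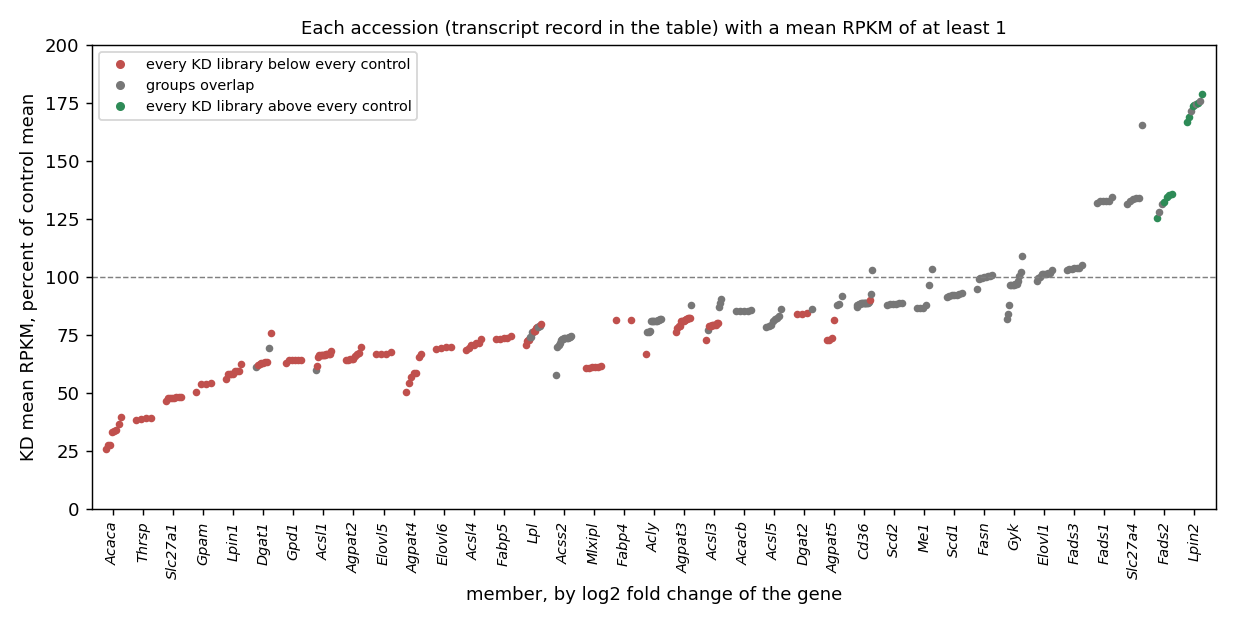
Mean RPKM in *Ctcflos* KD as percent of the control mean (y axis) for each transcript record with a mean RPKM of at least 1, by member (x axis, ordered by the log2 fold change of the gene), 1 point per record. Red and green points are records without overlap between the groups; the 8 records of *Acaca* lie between 25.8% and 39.4%, and records of 1 gene mostly lie close together.

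Promoters are shown for 3 members called lower, *Slc27a1*, *Gpam* and *Elovl5*, and for *Fasn*, whose level was not called. They were chosen because the RefSeq window lay upstream of the Gencode gene with at most 1 base inside it and held a CCAAT box, the motif bound by NF-Y. The box was thus fixed by the choice and is no finding. *Acsl3*, *Elovl1*, *Fads3* and *Mlxipl*, not called, met the same rule and are not shown. *Agpat2* and *Lpin1*, called lower and with a window upstream of the gene, held no CCAAT box. Each line gives the 250 bases before a RefSeq start site in GRCm38.p6, 5′ to 3′ on the strand of the gene, with matches to the motifs searched in capitals (CCAAT, or ATTGG on the other strand, and CACGTG). The windows are chr8:71568621-71568870 (plus strand) for *Slc27a1*, chr19:55127239-55127488 (minus) for *Gpam*, chr9:77917115-77917364 (plus) for *Elovl5* and chr11:120824548-120824797 (minus) for *Fasn*.
Slc27a1: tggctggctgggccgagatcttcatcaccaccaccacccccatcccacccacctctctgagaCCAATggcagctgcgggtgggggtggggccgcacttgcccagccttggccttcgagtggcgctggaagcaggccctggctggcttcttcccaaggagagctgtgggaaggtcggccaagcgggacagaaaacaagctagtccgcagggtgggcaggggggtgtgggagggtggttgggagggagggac
Gpam: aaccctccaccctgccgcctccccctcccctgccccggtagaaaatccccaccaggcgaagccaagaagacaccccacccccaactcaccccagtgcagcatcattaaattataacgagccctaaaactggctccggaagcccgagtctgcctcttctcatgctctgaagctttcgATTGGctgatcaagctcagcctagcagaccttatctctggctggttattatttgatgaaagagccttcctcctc
Elovl5: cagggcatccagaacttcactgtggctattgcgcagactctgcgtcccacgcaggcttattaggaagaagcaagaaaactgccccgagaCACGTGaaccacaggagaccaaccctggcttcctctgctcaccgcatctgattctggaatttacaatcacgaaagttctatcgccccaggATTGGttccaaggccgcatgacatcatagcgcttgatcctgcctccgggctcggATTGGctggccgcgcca
Fasn: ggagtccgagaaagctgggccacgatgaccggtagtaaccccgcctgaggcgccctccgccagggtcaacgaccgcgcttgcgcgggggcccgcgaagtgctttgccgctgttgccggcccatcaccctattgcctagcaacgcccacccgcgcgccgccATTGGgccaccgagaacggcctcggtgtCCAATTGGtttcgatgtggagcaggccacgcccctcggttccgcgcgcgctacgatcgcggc
Counted from the start site with upstream positions negative, the CCAAT box began at −188 in *Slc27a1* and, on the other strand, at −74 in *Gpam*. *Elovl5* held it on the other strand at −71 and −17, besides an E-box CACGTG at −161. *Fasn* held 3, at −90 and −59 on the other strand and at −62 on the strand of the gene, of which the last 2 overlap.

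RefSeq windows were matched by symbol for 27 of the 38 members, without *Scd1*, *Scd2*, *Fads1*, *Gpd1*, *Gyk*, *Agpat5*, *Dgat1*, *Dgat2*, *Lpl*, *Fabp4* and *Fabp5*, and a gene with several windows counted once. A CCAAT box on either strand was in the 250 bases of 17 of the 27, 63.0%, against 41.3% of the 6950 tested genes with a window and 33.8% of all 32851 windows. It was in 5 of the 9 members called lower that had a window. An E-box CACGTG was in 4 members (14.8%, against 10.6% of tested genes and 6.02% of windows), and a sterol regulatory element TCACNCCAC in 2, *Acsl1* and *Mlxipl* (7.41%, against 1.25% and 1.05%). A GC box GGGCGG was in 16 (59.3%, against 66.1% and 32.7%). The direct repeat 1 bound by PPAR and RXR was in 0 members and in 0.0432% of tested genes and 0.0335% of windows. These are matches of letters in one window per start site and say nothing of binding.

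Other genes of the same pathway, listed by role, gave 12 lower and 2 higher calls among 41 that passed the filter, against 12.4% and 11.5% of all genes tested, with a median log2 fold change of −0.18. In synthesis, desaturation and elongation 7 of 18 were lower and 1 higher. Those with the smallest p were *Elovl3*, a cold-inducible elongase of brown fat (40.7, 45.5 and 41.6 RPKM in KD, 78.3, 70.5 and 77.5 RPKM in controls, adjusted p = 0.0064), *Ptplad1* (Hacd3) and *Ptplb* (Hacd2), whose products act as dehydratases of the elongation cycle (log2 fold change −0.80 and −0.92), and *Elovl4*, which was higher (log2 fold change 0.71). In glycerolipid synthesis 3 of 10 were lower and 0 higher by limma, with 1 higher at an unadjusted p under 0.05. These 3 were *Gpd1l*, a relative of *Gpd1* (log2 fold change −0.75), *Aqp7*, the glycerol channel of adipocytes (−0.48), and *Gpd2*, the mitochondrial glycerol 3-phosphate dehydrogenase (−0.42). In uptake, binding and activation 2 of 13 were lower, *Angptl2* (log2 fold change −0.98) and *Lmf1*, which matures lipoprotein lipase (−0.79), and *Fabp7* was higher (0.58), counts close to those shares.

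Of 15 regulators of lipogenesis past the filter, 4 were called lower and 1 higher, against the 12.4% and 11.5% over all genes tested. *Rxra*, the partner of PPARγ and of the liver X receptors, was at 1.73, 1.28 and 2.59 RPKM in KD and at 4.81, 4.81 and 4.75 RPKM in controls, without overlap (log2 fold change −1.04, adjusted p = 0.0071). *Mlx*, the partner of ChREBP (−0.65, adjusted p = 0.0151), and *Usf2* (−0.37, adjusted p = 0.0324) were lower, and *Usf1*, which like *Usf2* binds E-boxes, was higher (0.68, adjusted p = 0.0216). The fourth lower gene, *Cebpa*, was named after its values were seen (32.8, 31.8 and 63.9 RPKM in KD, 78.2, 75.4 and 74.1 RPKM in controls, adjusted p = 0.0381).

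Gene spans were known for 80.6% of the genes tested. Of 921 tested genes with a span of at least 100 kb, 45.0% were called lower with a median log2 fold change of −0.34, while of 8505 shorter genes 10.2% were called lower with a median of 0.05. Among the members, 6 reach 100 kb and 3 of these were called lower, *Acaca*, *Agpat4* and *Elovl6*. Of the 30 shorter members 8 were called lower, and their median log2 fold change was −0.30. The part of gene length in the levels of the members was not tested.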

How the data were processed

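RNA of 3 *Ctcflos* KD and 3 control libraries was sequenced after stranded total RNA library preparation in 150 bp paired-end reads. The authors deposited RPKM values per transcript accession in a single table with 168326 lines. For the splice analysis of these libraries the study states alignment to GRCm38 with STAR, and for another data set the assignment of reads to RefSeq, Ensembl and GenBank transcripts in RPKM. Whether either applies to this table, and whether strand was used, is not given in the sources used here, so that overlapping genes and close paralogs are uncertain. After 305 exact repeats were removed, RPKM values were averaged over the accessions that share a symbol to give 1 value per gene. Those reaching 1 on average over the libraries were tested with limma-trend on log2(RPKM + 1) and accession usage with limma diffSplice, both two-sided with Benjamini-Hochberg adjustment over all genes tested and a threshold of 0.05. A fold change on this scale understates changes of low genes. No test for counts was used. Depth was recovered from low values, of which at least 96.3% were whole reads within 0.1. Members and lists were chosen with earlier results of these data known. By rule, full values are given for the 10 most decreased called members and the 5 most abundant ones. Library values of *Acsl1*, *Acacb*, *Fasn*, *Fads2*, *Lpin2* and *Mlxipl* were added after they were seen. From other lists at most 4 genes with the smallest p are named, besides *Cebpa* and the cell type markers. Alternatives were a pseudocount of 0.1, no filter, scaling by the median of ratios, a replicate block, RefSeq mRNA accessions alone, the highest accession, a threshold of 0.01 and leaving out each library, and, for usage, a minimum RPKM of 5. The fits were run on simulated data with the same independent noise for every gene (SD 0.15, log2 scale). That setting is simpler than these libraries, so the run checks the working of the fits and not the calls. Fits ran in R 4.3.3 (limma 3.58.1, with version 1.17.8 of data.table for input), and tables and figures were made in Python 3.11.15 with numpy 2.4.6, pandas 2.3.3 and matplotlib 3.10.9.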

Additional observations from a re-analysis of the deposited data

How the results depend on the processing

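All 11 members called lower remained so with a pseudocount of 0.1, with scaling by the median of ratios (12 lower, 2 higher), with RefSeq mRNA accessions alone (13 lower, 1 higher) and with the highest accession of each gene (12 lower, 1 higher). Without the filter, which puts 38335 genes under the adjustment, 1807 genes, 9 other pathway genes and 5 members were called, all 5 lower. At a threshold of 0.01 it was 523 genes, 6 other pathway genes and 2 members, both lower. Leaving out 1 library gave 423 to 4784 genes, 6 to 23 other pathway genes, 2 to 19 members, 2 to 16 lower and 0 to 3 higher. For usage, 5 genes were called at a minimum RPKM of 5, 6 with RefSeq mRNA accessions alone and 23 to 261 without 1 library. A replicate block in the fit left 1671 genes, 8 other pathway genes and 8 members called, without *Agpat2*, *Elovl6* and *Gpd1*. Same-numbered libraries deviated from their group means with correlations of 0.29, −0.29 and −0.42, so that the numbers were not taken as pairs. Libraries of different number ranged from −0.24 (KD library 1 with control 2) to 0.42 (KD library 3 with control 2) and 0.50 (KD library 2 with control 3). Pairing under another numbering was not tested. The sign of members that were not called turned for *Fasn* (−0.49 to 0.22 without 1 library), *Me1* (−0.38 to 0.063), *Scd1* (−0.31 to 0.067), *Gyk* (−0.14 to 0.086) and *Elovl1* (−0.046 to 0.067, and −0.011 with the median of ratios). The cause of these changes was not tested, apart from the number of genes or libraries each leaves. With 3 libraries per group, members near the threshold cannot be placed on either side of it, and members under 1 RPKM rest on fewer reads for their length than the others.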
